A study of Mus musculus with 6 samples.

Results

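Granins and the enzymes that cut prohormones were compared between sorted groups of mouse skin cells, which the paper's methods describe as epidermis. The first group was sorted for NCAM, a surface protein used to enrich Merkel cells. The other group was live cells sorted without that selection. The set held 10 genes, found by their gene names among the 54532 genes of the deposited count table: the granins Chga, Chgb, Scg2, Scg3 and Vgf, the convertase-binding proteins Scg5 and Pcsk1n, the convertases Pcsk1 and Pcsk2, and the carboxypeptidase Cpe. Expression was measured by Smart-seq2, which makes full-length cDNA from little RNA, in 3 NCAM_enriched libraries (NCAM+ and DAPI-) and 3 Total_skin_DAPI_neg libraries, called bulk skin here. The epidermis of the back was taken from male and female C57BL/6 mice for both groups, at an age of 4 weeks and with no treatment given in the labels. Each library was made from 500 live cells sorted into a multi-well plate. NCAM_enriched cells had also been bound to magnetic beads through polysialylated NCAM, and bulk skin cells had not. Bulk skin is therefore a mixture that can itself hold Merkel cells. No source says that the 3 libraries of a group came from different mice, so every p-value below covers only the spread between these libraries.

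Neuroendocrine cells store peptide hormones in dense core granules. Granins are acidic proteins that aggregate in the trans-Golgi network and form the core of these granules, and several of them are also cut into peptides. Inside the granule the convertases cut prohormones after pairs of basic residues, and Cpe then removes the basic residues left at the new end. Merkel cells are touch-sensing cells of the epidermis that carry such granules next to nerve endings, and chromogranin A, the product of Chga, is a standard stain for them and for Merkel cell carcinoma.

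Chga was the only one of the 10 genes called higher in the NCAM_enriched group, and none was called lower. The call was an adjusted p of at most 0.05 in edgeR's quasi-likelihood test across all 13157 genes with enough counts, where 1.04% of genes were called higher and 1.55% lower. Of the 10 genes, 6 had enough counts to be tested. Chga and Pcsk1n passed the count filter only through NCAM_enriched libraries, so a higher level there was built into their selection. Chgb, Scg5 and Pcsk2 reached its threshold in 2, 3 and 3 NCAM_enriched and in 1, 1 and 2 bulk skin libraries. The filter needs 3 libraries, so bulk skin alone would not have passed them, and only Cpe reached it in every library. Selection thus favoured genes higher in NCAM_enriched libraries, and the counts, signs and median of tested genes are given as description. Among the 6, 3 were higher at an unadjusted p under 0.05, against 8.73% of all tested genes (10.2% were lower). All 6 had a log2 fold change above 0, against 47.7% of all tested genes, and their median log2 fold change was 2.89 against -0.07 over all tested genes. The 3 genes whose libraries did not overlap between groups were Chga, Pcsk1n and Pcsk2, and 11.1% of all tested genes were separated in this direction. None of the 10 was separated in the other direction, against 19.3% of all tested genes. The genes Scg2, Scg3, Vgf and Pcsk1 were not tested for lack of counts. Under other tools and filters the number of the 10 genes called higher was 2 in DESeq2 (5.02% of all genes), 0 in limma-voom (2.67%), 2 in edgeR on every gene with any count (2.76%) and 2 in DESeq2 on those genes (4.52%), the 2 being Chga and Pcsk2 each time. Leaving out NCAM_enriched library 1, 2 or 3 gave 0, 1 and 3 genes (0.422%, 3.09% and 7.35% of all genes), and leaving out bulk skin library 1, 2 or 3 gave 0 each time (0.0%, 0.0% and 0.00678%).

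Library totals ran from 1343190 to 4481830 counts, and levels are given as normalised CPM, the counts of a gene per 1000000 counts that its library had in tested genes, with that total adjusted by TMM factors. One count was 0.216 to 0.773 CPM. A count of 0 allows a level of up to 0.649 to 2.32 CPM, the value of 3 counts in each library, which covers counting error only. Of 9 Merkel cell markers edgeR called 4 higher (Atoh1, Sox2, Pou4f3 and Krt20). All 9 were higher at an unadjusted p under 0.05 in edgeR, against 8.73% of all tested genes. The summed level of the 9 was 456 to 1400 CPM in NCAM_enriched libraries and 133 to 183 in bulk skin, with NCAM_enriched library 3 the lowest of its group. All 7 T cell and all 7 Langerhans and myeloid markers were called lower. Called higher were 5 of 7 suprabasal keratinocyte markers and 1 of 4 muscle markers, and all 7 suprabasal markers were higher at an unadjusted p under 0.05. No basal keratinocyte, fibroblast, Schwann cell, melanocyte, endothelial or sensory neuron marker was called by edgeR. Of these, 1 fibroblast, 1 Schwann cell and 2 endothelial markers were lower at an unadjusted p under 0.05. NCAM_enriched library 2 stood apart with 33000 CPM of 6 fibroblast markers, against 363 and 41.7 in libraries 1 and 3 and 10400 to 18200 in bulk skin. Bulk skin, though prepared as epidermis, thus held RNA of fibroblast markers beside 11600 to 16000 CPM of 5 basal keratinocyte markers. Those 5 basal markers summed to 30300 CPM in NCAM_enriched library 3, against 9550 and 6880 in libraries 1 and 2. The 7 suprabasal keratinocyte markers summed to 29300, 12900 and 15400 CPM in NCAM_enriched libraries 1 to 3, more than the Merkel cell markers in each, so the group is called by its label and not as pure Merkel cells. The 5 sensory neuron markers, of cells that also make granins, summed to 13.3, 30.9 and 8.80 CPM in NCAM_enriched libraries 1 to 3 and to 1.92 to 8.38 CPM in bulk skin. None of these 5 passed the count filter, and their part in the results below was not tested. In pooled cells, fewer cells of a type and less RNA per cell cannot be told apart.

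Promoter windows of 300 bases were read for 8 of the 10 genes from RefSeq (GRCm38.p6), running from 250 bases before to 50 after the transcription start. Vgf and Cpe had no entry. The cAMP response element, the site of CREB family factors and a known feature of granin promoters, was searched as TGACGTCA on both strands. It was found in 3 of the 8 windows, those of Scg2, Chgb and Pcsk1, where 1.79% of all 32851 promoter windows hold it. In these 3 its first base lay 68, 72 and 78 bases before the RefSeq start. The position depends on the annotation, because their GENCODE gene starts lie at -94, -364 and -31 bases from the RefSeq start. By GENCODE the element of Scg2 and of Chgb thus lies downstream of the gene start, and that of Pcsk1 lies closer before it. Its 5-base part TGACG, also on both strands and overlapping every full element, was present in 7 of 8 windows and in 20.8% of all windows. In Chga this part began 44 bases before the RefSeq start and 72 bases before the GENCODE gene start, which lies 28 bases downstream. The windows of Chga, the one called gene, and of the 3 genes with the full element are shown 5′ to 3′ on the gene's strand, with TGACGTCA in capitals, or TGACG in Chga. They lie at chr12:102554691-102554990 (plus strand) for Chga, chr2:132781392-132781691 (plus) for Chgb, chr1:79439977-79440276 (minus) for Scg2 and chr13:75089607-75089906 (plus) for Pcsk1.
Chga: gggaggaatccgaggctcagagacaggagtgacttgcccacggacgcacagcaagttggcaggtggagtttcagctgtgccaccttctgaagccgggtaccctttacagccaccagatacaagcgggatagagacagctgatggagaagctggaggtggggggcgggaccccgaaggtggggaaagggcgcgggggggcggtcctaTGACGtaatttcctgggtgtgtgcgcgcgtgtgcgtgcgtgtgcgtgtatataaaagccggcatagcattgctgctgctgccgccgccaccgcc
Chgb: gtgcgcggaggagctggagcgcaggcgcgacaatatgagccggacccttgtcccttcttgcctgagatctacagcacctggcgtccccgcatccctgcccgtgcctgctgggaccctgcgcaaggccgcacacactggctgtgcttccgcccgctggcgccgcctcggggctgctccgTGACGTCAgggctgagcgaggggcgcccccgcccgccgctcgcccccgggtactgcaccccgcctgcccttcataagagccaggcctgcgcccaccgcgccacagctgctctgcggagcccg
Scg2: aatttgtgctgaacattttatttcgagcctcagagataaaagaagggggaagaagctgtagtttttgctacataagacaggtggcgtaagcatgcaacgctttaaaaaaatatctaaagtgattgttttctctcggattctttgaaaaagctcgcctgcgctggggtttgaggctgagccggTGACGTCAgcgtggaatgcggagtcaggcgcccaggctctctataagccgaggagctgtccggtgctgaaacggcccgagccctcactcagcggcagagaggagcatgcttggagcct
Pcsk1: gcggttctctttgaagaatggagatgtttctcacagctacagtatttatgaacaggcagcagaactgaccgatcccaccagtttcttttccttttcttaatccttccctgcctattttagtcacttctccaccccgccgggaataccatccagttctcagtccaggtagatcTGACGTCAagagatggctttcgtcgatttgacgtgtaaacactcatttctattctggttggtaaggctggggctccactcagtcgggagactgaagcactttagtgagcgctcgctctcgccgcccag

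An E-box of the form CAGCTG, of the kind bound by basic helix-loop-helix factors, was found on either strand in the windows of Chga, Chgb and Pcsk2, 3 of 8 against 16.3% of all windows. The Chga window held 2 of them. The GC box GGGCGG was found in 6 of 8 against 35.7%, with 7 matches in Pcsk2. These are matches of letters only, and no binding was measured here.

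**Figure D1:**
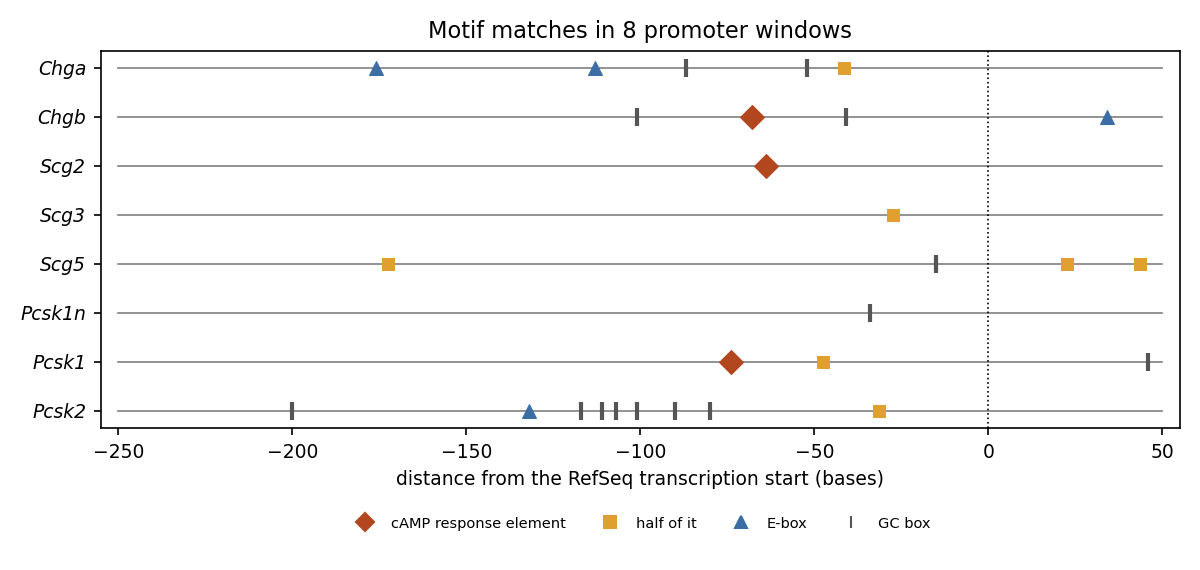
Positions of motif matches in the 8 promoter windows, in bases from the RefSeq transcription start (dotted line), one row per gene. The full cAMP response element (diamonds) lies 68 to 78 bases before the RefSeq start in Scg2, Chgb and Pcsk1. Squares mark its 5-base part outside a full element, and Chga has 1 square at 44 bases and 2 E-boxes (triangles).

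**Figure D2:**
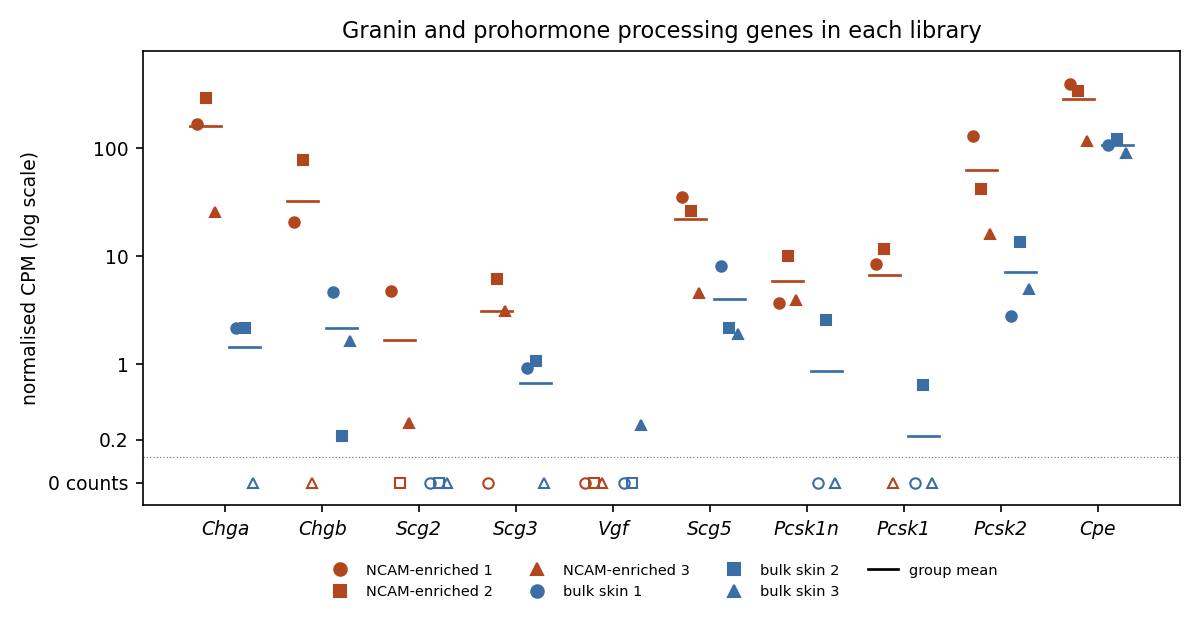
Normalised CPM (log scale, with libraries at 0 counts drawn as open symbols under the dotted line) of each of the 10 genes in the 3 NCAM_enriched and 3 bulk skin libraries, with horizontal lines at group means above the dotted line. Chga, Pcsk1n and Pcsk2 are higher in every NCAM_enriched library than in any bulk skin library, and Vgf has 1 count in 1 library.

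Among the granins, Chga (chromosome 12, 102554969 to 102565028, plus strand, GRCm38) had 167, 295 and 25.8 CPM in NCAM_enriched libraries 1, 2 and 3. In bulk skin it had 2.17, 2.16 and 0 CPM. The lowest NCAM_enriched library was thus above the highest bulk skin library, although the NCAM_enriched libraries differed among themselves by 11.4-fold. The means were 163 ± 135 and 1.45 ± 1.25 CPM (SD, n = 3 each), a log2 fold change of 6.76 ± 1.22 (SE; 95% interval 4.00 to 9.53; edgeR adjusted p = 0.0292). The call was lost without NCAM_enriched library 1 (adjusted p = 0.0527), without bulk skin library 1, 2 or 3 (0.202, 0.165 and 0.130) and in limma-voom (0.0534), and over the main test and 15 alternatives the adjusted p ran from 4.09e-15 to 0.202.

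Chgb, another chromogranin of the granule core, had no count in 1 of the NCAM_enriched libraries. It had 20.7, 77.3 and 0 CPM in NCAM_enriched libraries 1 to 3, the 0 allowing up to 0.851 CPM. In bulk skin it had 4.66, 0.216 and 1.65 CPM, so the groups overlapped through NCAM_enriched library 3. Chgb and Chga were both highest in NCAM_enriched library 2 and lowest in library 3. The log2 fold change of Chgb was 3.90 ± 1.86 (SE; 95% interval -0.31 to 8.11) and was not called (edgeR adjusted p = 0.303, from 0.0589 to 0.749 over all settings).

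Scg2, the precursor of secretoneurin, was detected only in NCAM_enriched libraries but at a low level. It had 9, 0 and 1 counts there, or 4.78, 0 and 0.284 CPM, and no count in bulk skin. Against a floor of 3 counts over the bulk skin group, the 10 counts seen were at least 5.72-fold higher. Counting error in those 10 counts is not covered by this bound. The bound rests on NCAM_enriched library 1: without it 1 count was left and no fold can be given, and without NCAM_enriched library 3 or bulk skin library 2 the bound was 10.9-fold and 3.42-fold. Scg3, which anchors chromogranin A to the granule membrane, had 0, 6.18 and 3.12 CPM in NCAM_enriched libraries and 0.931, 1.08 and 0 CPM in bulk skin, with overlapping groups. Vgf, a granin induced by nerve growth factor, had 0 counts in all 3 NCAM_enriched libraries and 1 count in bulk skin library 3, so it was not detectable at this depth in the NCAM_enriched libraries. With every gene that had any count kept, edgeR gave adjusted p-values of 0.340 for Scg2, 0.634 for Scg3 and 0.634 for Vgf.

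Both convertase-binding proteins were detected in every NCAM_enriched library, and neither was called. Scg5, a chaperone that the Pcsk2 product needs to become active and whose end part inhibits it, had 35.1, 26.3 and 4.54 CPM in NCAM_enriched libraries 1 to 3. In bulk skin it had 8.07, 2.16 and 1.92 CPM. NCAM_enriched library 3 lay below bulk skin library 1, while libraries 1 and 2 lay above all of bulk skin. The log2 fold change was 2.43 ± 1.16 (SE; 95% interval -0.20 to 5.06; edgeR adjusted p = 0.304, from 0.102 to 0.615 over all settings).

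Pcsk1n encodes proSAAS, a granin-like inhibitor of the Pcsk1 product. It had 3.72, 10 and 3.97 CPM in NCAM_enriched libraries 1 to 3, from 7, 13 and 14 counts. In bulk skin 12 counts in library 2 gave 2.59 CPM and libraries 1 and 3 had none. The groups did not overlap, yet each level rested on 14 counts or fewer. The log2 fold change was 2.65 ± 1.66 (SE; 95% interval -1.11 to 6.42; edgeR adjusted p = 0.443) and reached 6.95 without bulk skin library 2. Of its exonic bases 6.16% are shared with Eras on the opposite strand, which had 8 counts in bulk skin library 3 and 0 elsewhere, and Smart-seq2 does not mark the strand.

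Of the convertases, Pcsk2 was the more abundant one per length in all 6 libraries. Pcsk2 had 130, 41.7 and 16.2 CPM in NCAM_enriched libraries 1 to 3. It had 2.79, 13.6 and 4.94 CPM in bulk skin, all below the NCAM_enriched libraries, though bulk skin library 2 came close to NCAM_enriched library 3. The log2 fold change was 3.12 ± 0.97 (SE; 95% interval 0.91 to 5.33), which edgeR did not call (adjusted p = 0.119). DESeq2, the tool named in the study's methods, called it (adjusted p = 0.0114), as did both fits that kept every gene with any count and edgeR without NCAM_enriched library 3 (0.0437), and over all settings the adjusted p ran from 0.0114 to 0.349. Non-coding genes on the opposite strand, Pcsk2os1 and Pcsk2os2, share 3.29% and 1.25% of its exonic bases and had no count in any library.

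Pcsk1 was sparse in both groups. It had 8.50, 11.6 and 0 CPM in NCAM_enriched libraries 1 to 3, from 16, 15 and 0 counts. Bulk skin held 3 counts, all in library 2. The ratio of the pooled counts, scaled by library size, was 17.7 (95% counting interval 5.53 to 90.6), and without bulk skin library 2 it was at least 10.6. It was not tested at the main filter, and edgeR on every gene with any count gave an adjusted p of 0.345. Per kilobase of exon, Pcsk2 exceeded Pcsk1 by 10.8-fold and 2.55-fold in NCAM_enriched libraries 1 and 2 and by 14.9-fold in bulk skin library 2, and Pcsk1 had no count in the other libraries.

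Cpe, the carboxypeptidase that trims peptides after the convertases, had the highest level per length of the 10 genes in both groups. It had 396, 341 and 117 CPM in NCAM_enriched libraries 1 to 3 and 108, 121 and 89.7 CPM in bulk skin. NCAM_enriched library 3 lay within the bulk skin range, and the other two lay well above it. The means were 284 ± 148 and 106 ± 15.8 CPM (SD, n = 3 each), a log2 fold change of 1.42 ± 0.48 (SE; 95% interval 0.33 to 2.51; edgeR adjusted p = 0.148). Without NCAM_enriched library 3 it was called (log2 fold change 1.73 ± 0.35 SE, adjusted p = 0.0321), and over all settings the adjusted p ran from 0.0321 to 0.357. The part of other cell types in the level of Cpe was not tested.

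**Figure D3:**
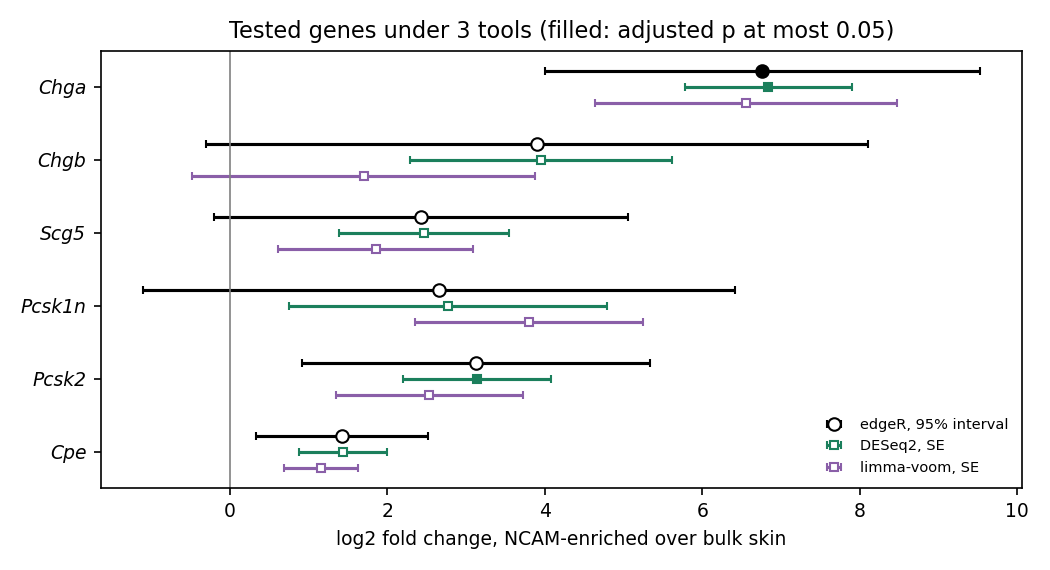
Log2 fold changes (NCAM_enriched over bulk skin) of the 6 tested genes in edgeR with 95% intervals and in DESeq2 and limma-voom with SE, filled where the adjusted p was at most 0.05. Every estimate lies above 0, Chga at 6.76 in edgeR is filled for edgeR and DESeq2, and Pcsk2 is filled for DESeq2 alone.

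Per length, measured as CPM per kilobase of exon, the order of the genes differed between the groups. In NCAM_enriched libraries Cpe led with 109 ± 56.7 CPM per kb (SD, n = 3), followed by Chga with 59.0 ± 48.9, Scg5 with 14 ± 10, Chgb with 11.9 ± 14.6 and Pcsk2 with 7.93 ± 7.56. Pcsk1n, Pcsk1, Scg3, Scg2 and Vgf followed at 2.70 or less. The ranges of all neighbours in this order overlapped. Within each library, however, Cpe exceeded Chga and Chga exceeded Scg5 in 3 of 3 NCAM_enriched libraries. In bulk skin Cpe had 40.7 ± 6.04 CPM per kb, above the range of Scg5, which came next at 2.58 ± 2.22, and all later neighbours overlapped. Chga, next after Cpe in the NCAM_enriched libraries, came after Scg5, Pcsk2 and Chgb there with 0.524 ± 0.454 CPM per kb.

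In the make-up of the summed level per length, Cpe took 57.5, 44.0 and 72.0% of it in NCAM_enriched libraries 1 to 3 and 83.2, 89.1 and 93.1% in bulk skin. Chga took 23.0, 36.1 and 15.1% in NCAM_enriched libraries and 1.59, 1.51 and 0% in bulk skin. Neither share overlapped between the groups. Scg5 took 4.66 to 8.47% in NCAM_enriched libraries and 2.65 to 10.4% in bulk skin, which overlap.

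**Figure D4:**
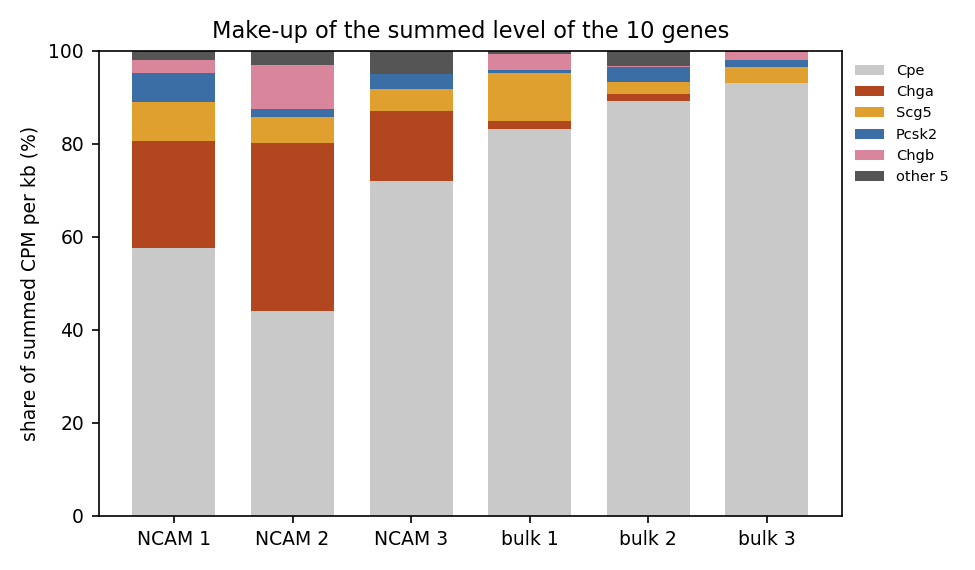
Stacked share (%) of each gene in the summed CPM per kb of the 10 genes, one bar per library, with Scg2, Scg3, Vgf, Pcsk1n and Pcsk1 combined as the other 5. The Cpe share is 44.0 to 72.0% in NCAM_enriched libraries and 83.2 to 93.1% in bulk skin.

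The NCAM_enriched libraries ranked alike for these genes and for Merkel cell markers at the low end. Summed over the 9 genes other than Cpe, the level was 370, 468 and 53.9 CPM in NCAM_enriched libraries 1 to 3, where Merkel cell markers summed to 1400, 1380 and 456 CPM. In bulk skin the 9 genes summed to 18.6, 22.5 and 8.77 CPM and the markers to 183, 145 and 133 CPM. Both sums were lowest in library 3 of the NCAM_enriched group, and both separated the groups. The 9-gene sum rests largely on Chga, which gave 167, 295 and 25.8 CPM of it in NCAM_enriched libraries 1 to 3. Pcsk2 gave a further 130, 41.7 and 16.2 CPM. Relative to 100 CPM of markers, the 9 genes had 26.4, 33.9 and 11.8 CPM in NCAM_enriched libraries and 10.2, 15.5 and 6.60 CPM in bulk skin, so this ratio overlapped between the groups. Relative to the same 100 CPM, Chga had 11.9, 21.4 and 5.66 CPM in NCAM_enriched libraries and 1.18, 1.49 and 0 in bulk skin, with no overlap. Cpe had 28.2, 24.7 and 25.6 CPM against 58.7, 83.6 and 67.4, lower in every NCAM_enriched library.

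**Figure D5:**
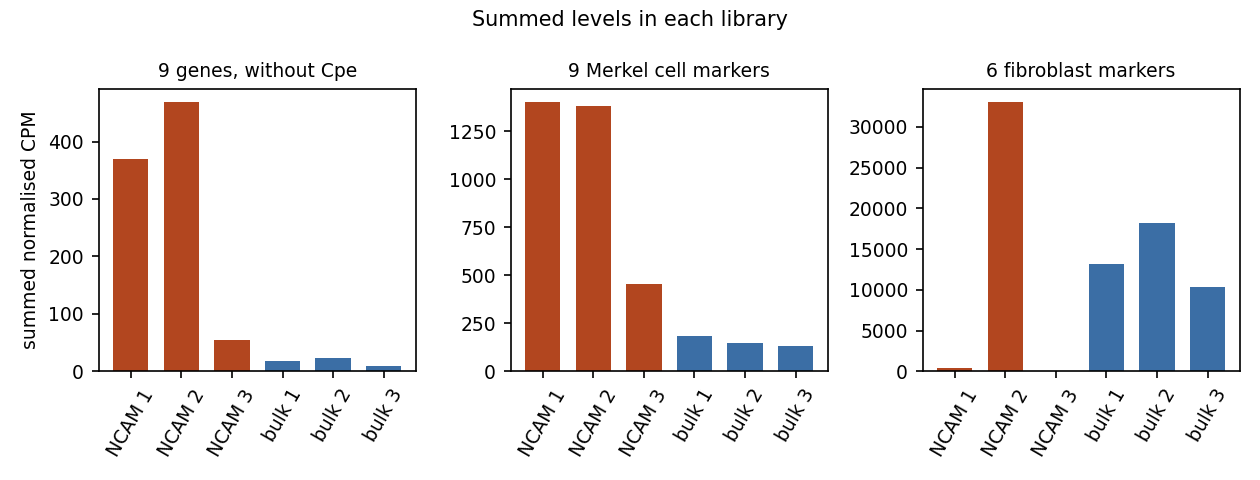
Summed normalised CPM in each library of the 9 genes without Cpe (left), 9 Merkel cell markers (middle) and 6 fibroblast markers (right), NCAM_enriched (NCAM) in red and bulk skin (bulk) in blue. NCAM_enriched library 3 is the lowest of its group in all 3 panels, and library 2 alone among NCAM_enriched libraries lies above bulk skin for the fibroblast markers, at 33000 CPM.

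Other genes of the same pathway were taken from 3 lists. Among 19 related proteases and peptide-modifying enzymes, all tested, edgeR called 1 lower, none higher and 18 not at all (2 higher at an unadjusted p under 0.05 and 2 by DESeq2, where 8.73% and 5.02% of all genes were), with a median log2 fold change of -0.44 against -0.07 over all genes. The gene that fell was Qpct, the cyclase that forms pyroglutamate at peptide ends. It had 68.6, 45.8 and 79.8 CPM in bulk skin and no count in the NCAM_enriched group, at least 141-fold lower against 3 counts over that group (edgeR adjusted p = 0.0140), or at least 66.7-fold without NCAM_enriched library 3. Qpct passed the count filter only through bulk skin, so a lower level in the NCAM_enriched group was built into its being tested. Its call was lost without bulk skin library 1, 2 or 3 (adjusted p = 0.128, 0.0943 and 0.130). All T cell, Langerhans and myeloid markers fell between the same libraries, and their part in this fall was not tested. Pam, which amidates peptide ends, had 337, 627 and 129 CPM in NCAM_enriched libraries and 93.1, 148 and 64.7 CPM in bulk skin (log2 fold change 1.84 ± 0.59 SE, edgeR adjusted p = 0.130). DESeq2 called Pam (adjusted p = 0.0387), and its groups overlapped only through NCAM_enriched library 3 and bulk skin library 2. The lysosomal proteases Ctsb and Ctsl had log2 fold changes of -0.84 and -0.76 that were not called (adjusted p = 0.406 and 0.491).

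Among 26 genes of the granule membrane, granule sorting and release, 18 were tested, and edgeR called 1 higher, none lower and 17 not at all (7 higher and 0 lower at an unadjusted p under 0.05, against 8.73% and 10.2% of all genes). The median log2 fold change was 1.36, and DESeq2 called 3 higher, against 5.02% of all genes. The gene that rose was Cadps, which primes granules for release. It had 20.7, 41.7 and 11.9 CPM in NCAM_enriched libraries and no count in bulk skin, at least 77.2-fold higher (edgeR adjusted p = 0.0403), a bound that dropped to 46.1-fold when bulk skin library 2 was left out. Cadps passed the count filter only through NCAM_enriched libraries, so a higher level there was built into its being tested. Like that of Chga, its call was lost without NCAM_enriched library 1 (adjusted p = 0.0656) and without any one bulk skin library (0.201 to 0.237). The 3 genes of the list with the highest mean CPM, not adjusted for length, were Rab3d, a small GTPase of secretory granules, Sort1, the sorting receptor sortilin, and Arfip2, a factor of granule formation. Each had more CPM in every NCAM_enriched library than in any bulk skin library, as did 11.1% of all tested genes. Rab3d had 435, 262 and 766 CPM in NCAM_enriched libraries 1 to 3 and Sort1 had 100, 93.5 and 156, both highest in library 3. Arfip2 had 94.6, 85.0 and 92.8 CPM there. None of the 3 was called by edgeR, with log2 fold changes of 1.42, 1.6 and 0.94 and adjusted p-values of 0.126, 0.145 and 0.249.

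Among 30 peptide precursors, the substrates of these enzymes, 6 were tested and none was called by edgeR (2 higher at an unadjusted p under 0.05, against 8.73% of all genes), while DESeq2 called 2 higher, against 5.02%. Of the 6 tested, 3 had a log2 fold change above 0, and the median was 0.57. The 2 DESeq2 calls were Penk, the precursor of enkephalins, and Calcb, the precursor of the second calcitonin gene-related peptide. Penk had 108, 131 and 53.9 CPM in NCAM_enriched libraries and 26.7, 33.1 and 11.5 CPM in bulk skin (log2 fold change 2.03 ± 0.58 SE, edgeR adjusted p = 0.0926). Calcb had 70.7, 99.7 and 46.5 CPM against 20.2, 14.9 and 5.48 CPM (2.41 ± 0.66, edgeR adjusted p = 0.0844). For both, the lowest NCAM_enriched library lay above the highest bulk skin library, as for 11.1% of all tested genes. Cck, the cholecystokinin precursor and the one with the highest mean CPM of the list, had 405, 758 and 20.4 CPM against 252, 96.8 and 34.3 CPM, with NCAM_enriched library 3 below all of bulk skin. Precursors that went the other way included Nmb, at 0, 0 and 4.82 CPM against 13.7, 8.86 and 17.0 CPM (log2 fold change -2.87, edgeR adjusted p = 0.371). Calca and Pyy did not pass the count filter and had no count in NCAM_enriched libraries. In bulk skin Calca had 14, 5 and 38 counts and Pyy had 0, 207 and 208. Nmb and Calca were lower in every NCAM_enriched library than in any bulk skin library, as were 19.3% of all tested genes.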

How the data were processed

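The authors deposited raw read counts per gene with no normalization. According to their methods, adapters and polyA were clipped with bbduk, abundant sequences were removed with bbmap, single-end reads were aligned to GRCm38 with STAR and counted with featureCounts. No annotation release or strandedness option is stated in the sources read. Counts of 54532 genes in 6 libraries were compared between the groups in the labels with edgeR 4.0.16 in R 4.3.3 (filterByExpr with a minimum count of 10, TMM, quasi-likelihood F-test, Benjamini-Hochberg over 13157 genes). SE was taken as the absolute log2 fold change over the root of F. Exonic lengths (union of exons of all transcripts) and overlaps came from GENCODE M21, which held 54409 of the gene IDs. The test was checked on simulated counts. Alternatives were DESeq2 1.42.0, limma-voom (limma 3.58.1), other normalizations and filters, blocking on replicate number, robust dispersion and leaving out each library. A DESeq2 fit that kept every gene with any count was chosen after seeing the data. Members and lists were chosen with earlier results of these data known. Named beyond the 10 genes were, of each pathway list, every called gene and the 3 with the highest mean CPM, and of the marker lists only defining markers. Eras, Pcsk2os1, Pcsk2os2, Nmb, Calca and Pyy were named after their values had been seen. Intervals and floors cover counting error only, because the reads are PCR copies without molecular identifiers.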

Additional observations from a re-analysis of the deposited data

How the results depend on the processing

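Among the 10 genes, 1 was called higher. DESeq2 called 2, edgeR 2 and DESeq2 2 when every gene with any count was kept, and limma-voom 0, where 3 had an unadjusted p under 0.05. Leaving out libraries moved the number between 0 and 3. It was 0 without NCAM_enriched library 1 and without bulk skin library 1, 2 or 3, where unadjusted p-values under 0.05 were found for 1, 2, 4 and 2 genes, and 3 without NCAM_enriched library 3. No setting called one lower or gave an unadjusted p under 0.05 in that direction. Of all tested genes, 137 were called higher and 204 lower. These numbers were 661 and 928 by DESeq2, 351 and 849 by limma-voom, 769 and 741 by edgeR on every gene with any count, and 1259 and 1094 by DESeq2 on those. Libraries of the same number did not deviate together (r = 0.0287, -0.00051 and 0.00672), so numbers were not used as pairs, and with the replicate block the numbers were 50 and 92, and Chga stayed called (adjusted p = 0.0101) while Cadps did not (0.138). Leaving out libraries gave 0 to 1099 higher and 13 to 733 lower. The 0 came without bulk skin library 1 and without library 2, where unadjusted p-values under 0.05 were found for 1125 and 1137 genes in edgeR. The cause was not tested. The all-gene median log2 fold change of -0.07 moved to -0.17 with upper-quartile factors, -0.37 in limma-voom and -0.36 with the block. Over 255 alternative log2 fold changes of the tested members and of the pathway genes named by call or mean CPM, none changed sign, 18 gained a call and 13 lost one. Depth limits Scg2, Scg3, Vgf, Pcsk1 and Pcsk1n, each at 34 counts or fewer over a group.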
